A study of Saccharomyces cerevisiae with 6 samples.

Results

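The genes described here encode the proteasome, the protease complex that degrades ubiquitin-tagged proteins in the cytosol and nucleus, together with RPN4, the gene of the transcription factor that drives their expression. They were chosen by name: 33 genes, of which 14 encode subunits of the core particle (PRE1 to PRE10, PUP1 to PUP3 and SCL1), 6 the ATPases RPT1 to RPT6, 12 the other subunits of the regulatory particle (the RPN genes except RPN4), and 1 is RPN4 itself. Each had 1 probe, and all 33 were measured on every array, among 5693 features tested.

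Cultures of the budding yeast Saccharomyces cerevisiae strain S288C, growing exponentially in YPD medium at 25 C, were exposed to 35 ppm paraquat (methyl viologen) for 2 h, and untreated cultures were kept growing for the same time. Paraquat passes electrons from cellular reductases to oxygen and so generates superoxide inside the cell. Polyadenylated RNA of treated cells was labelled with Cy5 and hybridised against Cy3-labelled RNA of untreated cells on 3 arrays, given in the design text as independent biological samples. Every array has 2 scans, with the laser at high and at low power. The series thus holds 1 strain, 1 dose and 1 time.

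Both scans of an array were averaged, so that n is 3 arrays throughout, and the untreated channel is the control of every ratio. Values are log2 ratios, and a negative value is read as a lower transcript level after paraquat. Channel order in the labels makes that direction likely, but no source used here states it or the base of the logarithm, and with the opposite direction the sign of each log2 value, the ranks and the words lower and higher would turn. Treated RNA carried Cy5 on all arrays, so that dye and treatment cannot be told apart. RNA came from whole cultures, and a change in every cell and a larger change in some cells cannot be told apart either.

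As background, the core particle is a barrel of 4 stacked rings in which outer alpha rings gate the entrance and inner beta rings hold the proteolytic sites. The regulatory particle caps the barrel: its base, with the Rpt ATPase ring, unfolds substrates and threads them in, and its lid removes ubiquitin. In budding yeast most of these genes share the PACE promoter element, which Rpn4 binds, and Rpn4 is itself a very short-lived substrate of the proteasome, which makes a feedback loop. Oxidative stress is known to act on the complex in both directions, since free core particles degrade oxidised proteins while assembled proteasomes can come apart.

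Proteasome genes lay below 0 after paraquat as a group, by a small amount in most members, and no single gene passed the test across all features. Of the 33 genes, 29 had a mean below 0, against 50.8% of all features tested. The median of the 33 means was -0.25, a difference of -15.7% on the linear scale (18.7% with the opposite direction), while the median of all features was -0.00654. The range ran from RPN8 at -0.83 to PRE7 at 0.25. By the limma adjusted p over all features, 0 of 33 passed the threshold of 0.05, where the whole table held 2 called features, both higher, or 0.0351%. At an unadjusted limma p under 0.05, 4 of the 33 were lower, all of them genes of the regulatory particle (RPN8, RPN5, RPN2 and RPT2), and 0 were higher. The corresponding shares of all features were 5.29% lower and 5.48% higher.

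**Figure D1:**
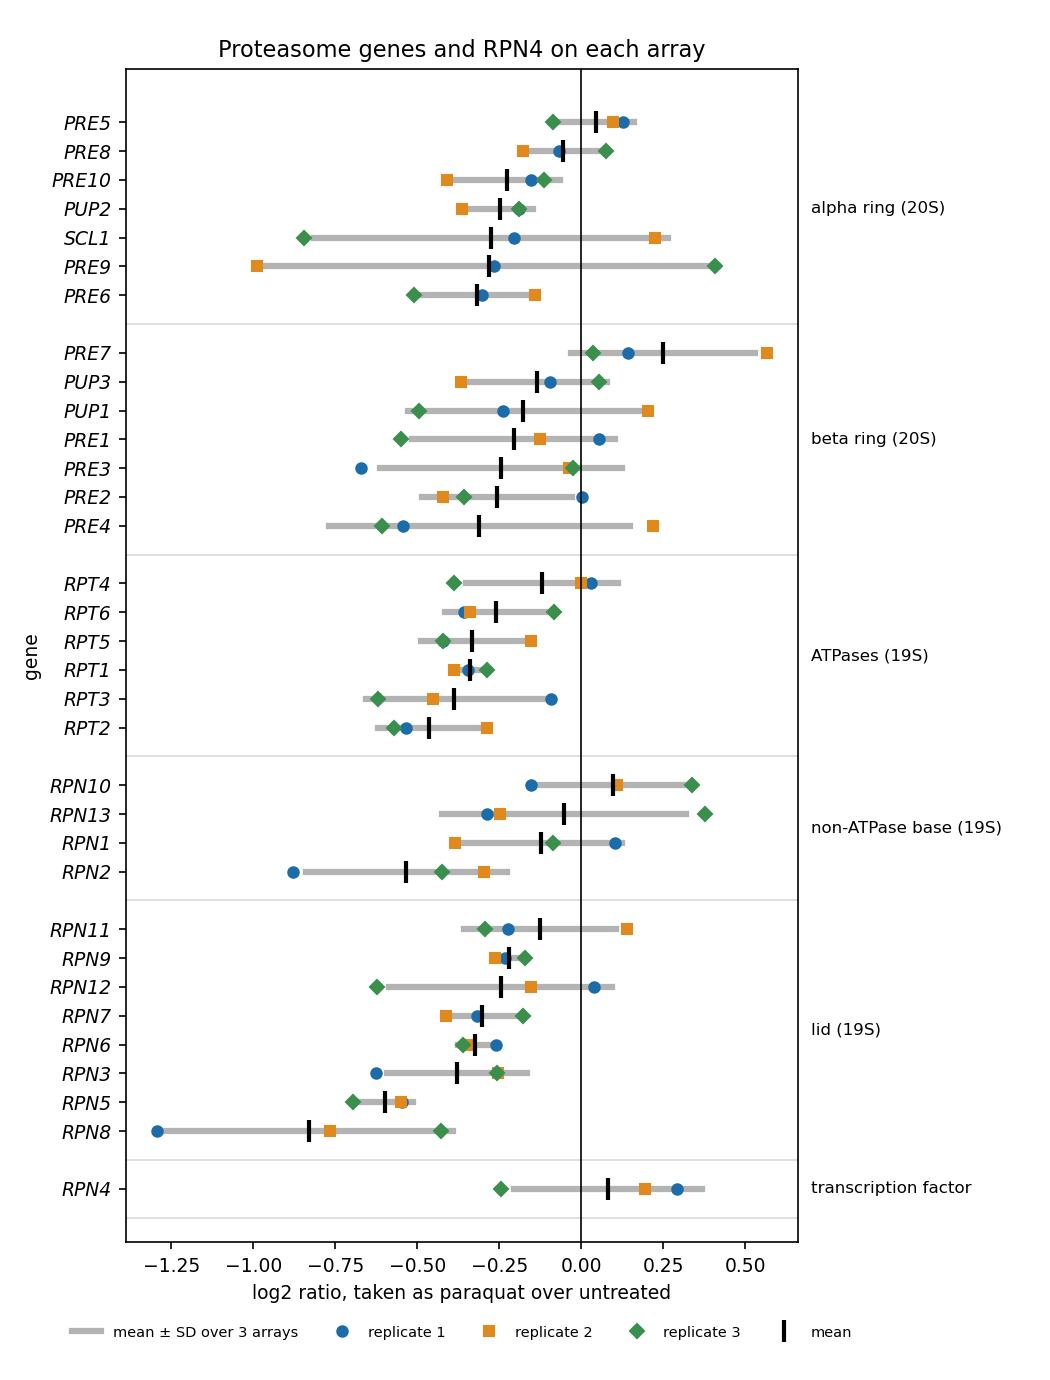
Log2 ratio (horizontal axis) of each of the 33 genes (vertical axis, grouped by ring or subcomplex) on replicates 1, 2 and 3, with the mean as a black tick and the grey bar as mean ± SD over 3 arrays. Points of the ATPase and lid genes lie mostly left of 0, while RPN10, PRE7, PRE5 and RPN4 have means right of 0 and PRE9 and SCL1 spread widely.

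The shift was seen on each array. On replicates 1, 2 and 3 the 33 genes had medians of -0.23, -0.25 and -0.29, and 25, 25 and 27 of them were below 0. Across all features the share below 0 was 49.4%, 46.9% and 52.0% on the same arrays. Below 0 on every array were 16 of the 33 genes, against 16.0% of all features. PRE7 alone was above 0 on every array, where the share of all features was also 16.0%. The remaining 16 genes changed sign between arrays.

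Proteasome genes had low power values more often than other features, so the comparison was also made among features with a value in every scan. All 3 low power scans gave a value for 31 of the 33 genes but for 34.7% of all features. Among the 1794 features with a value in all 6 scans, 50.6% had a mean below 0 and 18.7% were below 0 on every array. There the median was -0.00482. The 29 proteasome genes in that set had a median of -0.26, with 26 below 0.

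**Figure D2:**
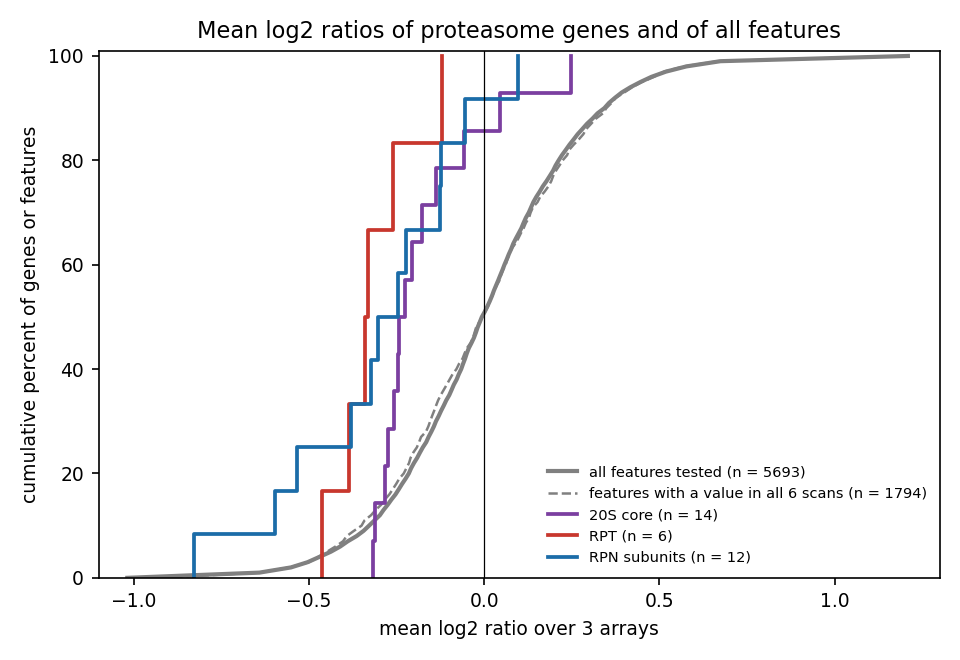
Cumulative percent (vertical axis) of genes or features with a mean log2 ratio at or under the value on the horizontal axis, for the 14 core, 6 RPT and 12 RPN subunit genes, for all 5693 features and for the 1794 with a value in all 6 scans. The steps of the 3 proteasome lists lie left of both grey curves over most of their range, and the core list starts near -0.32.

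In the core particle the means were small, from -0.32 to 0.25. Of 14 core genes, 12 had a mean below 0, the median was -0.24, and 0 passed at an unadjusted p under 0.05. The list had medians of -0.17, -0.13 and -0.15 on replicates 1, 2 and 3. Of the 14 genes, 4 (28.6%) were below 0 on every array. The share was 16.0% of all features and 18.7% of those with a value in all 6 scans.

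The alpha ring, whose subunits form the gate and the docking surface for the cap, had 6 of 7 means below 0 and a median of -0.25, which was -0.13 without replicate 2. PRE6, the alpha4 gene, was at -0.30, -0.14 and -0.51 on replicates 1, 2 and 3, with a mean of -0.32 ± 0.18 (SD, n = 3 arrays; limma adjusted p = 0.597), the lowest of the core. All 3 arrays were below 0. PUP2 (alpha5) at -0.25 and PRE10 (alpha7) at -0.23 were also below 0 on every array.

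PRE9, which encodes alpha3, the 1 alpha subunit that yeast can live without, was measured at -0.27, -0.99 and 0.41. SCL1, the alpha1 gene, was at -0.21, 0.23 and -0.85. These are the widest spreads of the 33 genes, at 1.40 and 1.07 between the highest and lowest array, and the arrays that stood out differed: replicate 2 was low for PRE9 and replicate 3 for SCL1. Their means, -0.28 for both genes, turned to 0.07 for PRE9 without replicate 2 and to 0.01 for SCL1 without replicate 3. PRE8 (alpha2), at -0.06 ± 0.13, and PRE5 (alpha6), at 0.13, 0.10 and -0.09 with a mean of 0.05 ± 0.12 (SD, n = 3 arrays), lay near 0.

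The beta ring holds the 3 catalytic subunits, and its 7 genes had a median of -0.21 with 6 means below 0. The arrays were uneven, with medians of -0.10, -0.04 and -0.36 on replicates 1, 2 and 3 and 4, 4 and 5 genes below 0. PRE3, the gene of beta1 with caspase-like activity, was at -0.67, -0.04 and -0.03, so replicate 1 alone was low and the mean of -0.24 ± 0.37 (SD, n = 3 arrays; limma adjusted p = 0.724) became -0.03 without it. PUP1, the gene of beta2 with trypsin-like activity, was at -0.24, 0.20 and -0.49, with a mean of -0.18 ± 0.35 (SD, n = 3 arrays; limma adjusted p = 0.809). PRE2, the gene of beta5 with chymotrypsin-like activity, was at 0.00307, -0.42 and -0.36, with a mean of -0.26 ± 0.23 (SD, n = 3 arrays; limma adjusted p = 0.6999). PRE3 was the 1 beta gene below 0 on every array, and its replicate 2 value comes from the low power scan alone.

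Among the structural beta genes, PRE4 (beta7) was at -0.54, 0.22 and -0.61, with replicate 2 above 0 and a mean of -0.31 ± 0.46 (SD, n = 3 arrays; limma adjusted p = 0.640). PRE7 (beta6) was the highest of all 33 genes, at 0.14, 0.57 and 0.04. Its mean of 0.25 ± 0.28 (SD, n = 3 arrays; limma adjusted p = 0.715) did not pass. The probe numbers are made of digit fields that may follow position on the array, and with an additive trend fitted to these fields removed from each array, that mean was -0.03. PRE1 (beta4) at -0.21 and PUP3 (beta3) at -0.14 had arrays on both sides of 0. Removing the same trend moved other beta genes down, PUP1 to -0.36 and PRE1 to -0.40, and the ring median to -0.32.

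The 6 ATPase genes lay below 0 in the mean. All 6 RPT means were below 0, 5 genes were below 0 on every array, against 16.0% of all features, and the median was -0.34. On replicates 1, 2 and 3 the list medians were -0.35, -0.31 and -0.41. These ATPases pull substrates through the ring, and the tails of Rpt2, Rpt3 and Rpt5 dock into the alpha ring to open its gate.

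RPT2 was at -0.54, -0.29 and -0.57, all below 0 (replicate 2 from the low power scan alone), with a mean of -0.46 ± 0.15 (SD, n = 3 arrays; limma adjusted p = 0.399). RPT3 was at -0.09, -0.45 and -0.62, with replicate 1 close to 0, and a mean of -0.39 ± 0.27 (SD, n = 3 arrays; limma adjusted p = 0.509). With the trend over the probe number removed, RPT2 and RPT3 were at -0.26 and -0.16, and the RPT median at -0.23. The part of array position in these values was not tested. RPT1, at -0.34, -0.39 and -0.29, had one of the smallest spreads of the 33 genes (mean -0.34 ± 0.05, SD, n = 3 arrays), and RPT5 followed at -0.33 ± 0.16. RPT6 was at -0.36, -0.34 and -0.08, with a mean of -0.26 ± 0.15 (SD, n = 3 arrays; limma adjusted p = 0.683). RPT4 was the highest at 0.03, -0.000909 and -0.39, so that its mean of -0.12 ± 0.23 (SD, n = 3 arrays; limma adjusted p = 0.888) rested on replicate 3, or -0.24 with the trend removed.

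The 12 RPN subunit genes held both the lowest values and some near 0. Of their means 11 were below 0, 7 genes were below 0 on every array, against 16.0% of all features, and the median was -0.27. Medians on the 3 arrays were -0.27, -0.28 and -0.27. The lid and the RPN genes of the base, which are different subassemblies, are given apart.

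In the lid all 8 means were below 0 and the median was -0.31. On every array 6 of the 8 genes were below 0, against 16.0% of all features. RPN8 (YOR261C), whose product pairs with the deubiquitinase Rpn11, was at -1.29, -0.77 and -0.43 on replicates 1, 2 and 3, the lowest of the 33 genes. Its high and low power scans gave -1.17 and -1.42 on replicate 1, -0.89 and -0.65 on replicate 2, and -0.34 and -0.52 on replicate 3, all below 0. These scans lay farther apart than those of the subunit genes in general, whose median absolute differences were 0.107, 0.111 and 0.0879. Its mean was -0.83 ± 0.44 (SD, n = 3 arrays), or -43.7% (77.7% with the opposite direction), with a 95% interval from -1.26 to -0.39 and a limma adjusted p of 0.142. Tested among the 1794 features with values in all 6 scans alone, RPN8 passed, with a limma adjusted p of 0.0127. The other alternatives that test against 0 gave RPN8 a limma adjusted p from 0.0530 to 0.915, the highest without replicate 1, where its mean was -0.60. RPN8 ranked number 18 from the lowest of 5693 features, and it lay in the lowest 0.685%, 2.76% and 11.7% of features on the 3 arrays, or as far from the highest with the opposite direction.

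RPN5 (YDL147W), a scaffold subunit of the lid, was at -0.55, -0.55 and -0.70, so that its arrays lay close together. The mean was -0.60 ± 0.09 (SD, n = 3 arrays; limma adjusted p = 0.288), with a 95% interval from -1.002 to -0.19. With the trend over the probe number removed RPN5 and RPN8 were both at -0.64, so that RPN8 did not stand apart from RPN5 there. The other scaffold genes of the lid were less far from 0, with RPN3 at -0.38, RPN6 at -0.32, RPN7 at -0.30, RPN12 at -0.25 and RPN9 at -0.22. RPN3, RPN6, RPN7 and RPN9 were below 0 on every array, while RPN12, the last subunit to join the lid, was at 0.04, -0.15 and -0.62.

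RPN11, the gene of the deubiquitinase that clips ubiquitin chains off substrates, was at -0.22, 0.14 and -0.29 with a mean of -0.13 ± 0.23 (SD, n = 3 arrays; limma adjusted p = 0.878). With the trend over the probe number removed RPN11 was at -0.33 and RPN9 at -0.35, so that the order of the lid genes above RPN8 and RPN5 changed with this setting.

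The 4 RPN genes of the base and its junction with the lid were split. RPN2 (YIL075C), the large scaffold that anchors Rpn13, was at -0.88, -0.30 and -0.43, all below 0, with a mean of -0.53 ± 0.31 (SD, n = 3 arrays; limma adjusted p = 0.339). The other 3 genes encode the ubiquitin receptors of the particle, and all had means near 0. RPN1 was at 0.10, -0.39 and -0.09 with a mean of -0.12 ± 0.25. Its replicate 1 value comes from the high power scan alone, and its replicate 3 scans were -0.27 at high and 0.09 at low power. RPN13 was at -0.29, -0.25 and 0.38 with a mean of -0.05 ± 0.37 (SD, n = 3 arrays; limma adjusted p = 0.957). RPN10 was at -0.15, 0.11 and 0.34 with a mean of 0.10 ± 0.24 (SD, n = 3 arrays; limma adjusted p = 0.914). With the trend removed RPN1 and RPN10 were both at -0.02. Each of the 3 receptor genes had arrays on both sides of 0, and the list median of these 4 genes, -0.09, became 0.03 without replicate 2.

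**Figure D3:**
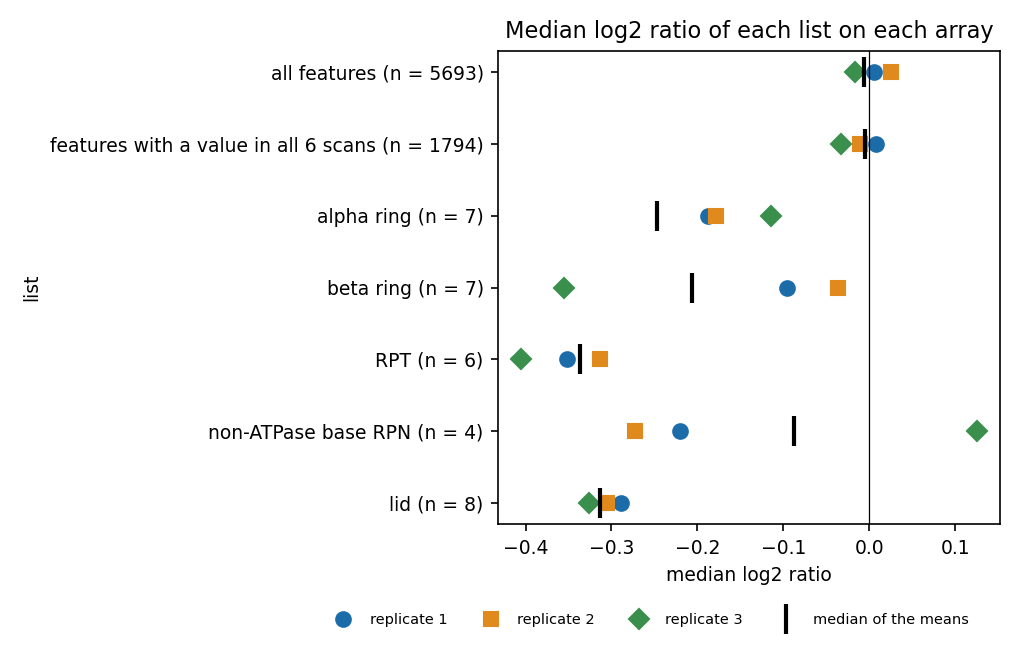
Median log2 ratio (horizontal axis) on replicates 1, 2 and 3 for each ring or subcomplex (vertical axis, n genes), for all features and for those with a value in all 6 scans, with the median of the gene means as a black tick. The RPT medians lie between -0.41 and -0.31 and the lid medians between -0.33 and -0.29, whereas the non-ATPase base RPN list crosses 0 on replicate 3.

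The regulatory particle had lower medians than the core. Its 18 genes had medians of -0.30, -0.29 and -0.33 on replicates 1, 2 and 3, below the core medians of -0.17, -0.13 and -0.15 on each array. Below 0 on every array were 12 of the 18 genes and 4 of the 14 core genes, against 16.0% of all features. This difference between lists was not tested. The median of the gene means was -0.31 for the 18 genes and -0.24 for the core, closer together than the medians on single arrays. With the trend over the probe number removed, it was -0.26 for the 18 genes and -0.30 for the core, the opposite order. The medians on single arrays kept their order there, at -0.36, -0.25 and -0.33 for the 18 genes and -0.28, -0.03 and -0.23 for the core.

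The subunit genes differed among themselves about as much as 1 gene's error. The 32 subunit means had an SD of 0.20, and the median standard error of a mean was also 0.20. Over all features the SD of the means was 0.27, with a median standard error of 0.20. Across the 32 genes, which are not independent replicates, replicates 1 and 2 had a Pearson r of 0.34, replicates 1 and 3 one of 0.19, and replicates 2 and 3 one of -0.13. Agreement was also weak over all features, with r of 0.16, 0.22 and 0.03 for the same pairs. High and low power scans of 1 array, which share the hybridised spots, gave r of 0.78, 0.88 and 0.89 over the 30 to 32 genes with both values. In chromosome order RPT4 and RPN8 have 1 gene between them, with means of -0.12 and -0.83, and PRE4 and RPN12 also have 1 between them, with means of -0.31 and -0.25.

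RPN4 had no direction shared by the arrays. On replicates 1, 2 and 3 it was at 0.29, 0.19 and -0.24, above 0 on the arrays of replicates 1 and 2 and below on replicate 3. Its replicate 2 value comes from the high power scan alone. The mean was 0.08 ± 0.29 (SD, n = 3 arrays; limma adjusted p = 0.939), with a 95% interval from -0.34 to 0.50 that holds changes in both directions. That interval also holds the subunit median of -0.25. The RPN4 mean was -0.03 without replicate 1 and 0.24 without replicate 3. Removing the trend gave 0.19. Transcript levels say nothing of the level of the Rpn4 protein, which is set largely by its degradation.

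Among known regulators of RPN4, 6 of 7 were measured and 0 passed. Heat shock factor, Yap1 and Pdr1 activate the RPN4 gene. HSF1 was at 0.28, 0.29 and 0.34, even across arrays, with a mean of 0.30 ± 0.03 (SD, n = 3 arrays; limma adjusted p = 0.617). YAP1 was at 0.05, 0.04 and -0.36, and PDR1 was at -0.07, -0.20 and -0.42. The ligase Ubr2 with its partner Mub1 and the conjugating enzyme Rad6 marks Rpn4 for degradation. UBR2 had a mean of 0.33 ± 0.32 and MUB1 of -0.19 ± 0.06, while RAD6 was spread over -1.13, -0.28 and 0.30. With the trend removed MUB1 was at -0.06 and RAD6 at -0.61.

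Genes that assemble the proteasome had means on both sides of 0. Of 9 assembly chaperone genes, 8 were measured, and 6 of these had a mean above 0, with a median of 0.11 and 0 passing. IRC25, a chaperone gene of the alpha ring, was the highest at 0.51, 0.30 and 0.20 (mean 0.34 ± 0.16, SD, n = 3 arrays; limma adjusted p = 0.561), but at 0.11 with the trend removed, where HSM3 at 0.22 and UMP1 at 0.16 lay above it. PBA1, whose product also assembles the alpha ring, was the lowest at -0.27 ± 0.17. UMP1, the maturation factor of the core particle, was at 0.82, 0.22 and -0.42, on both sides of 0. Above 0 on every array were 3 of the 8 genes (ADD66, IRC25 and NAS2) and below 0 on every array 1 (PBA1), each against 16.0% of all features. The list medians were 0.44, 0.04 and -0.15 on replicates 1, 2 and 3, so they shared no direction. The median of the means was -0.10 without replicate 1 and 0.04 with the trend removed.

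Proteins that bind the assembled complex had 6 of 7 means below 0 and a median of -0.26, with 0 passing. Only 2 of these genes, SPG5 and UBP6, had values in all 6 scans, with a median of -0.48. On low power scans alone, which also gave 2 genes, the median was -0.59. SPG5, a gene for proteasome assembly in stationary phase, was the lowest at -1.24, -0.49 and -0.44, with a mean of -0.72 ± 0.45 (SD, n = 3 arrays; limma adjusted p = 0.218), or -0.46 with the trend over the probe number removed. SEM1, which encodes a small lid subunit outside the 33 genes, was at 0.25, -0.63 and -0.70, and FUB1 was the highest at 0.38 ± 0.29. With the trend removed they were at -0.22 and 0.17. The 3 shuttle receptor genes, which deliver ubiquitinated substrates, lay between RAD23 at -0.13 and DSK2 at 0.07.

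The genes of the Cdc48 segregase, which extracts ubiquitinated proteins and hands them to the proteasome, had all 6 means below 0 and a median of -0.37, and 0 of them passed. Below 0 on every array were 3 of the 6, against 16.0% of all features. The list medians were -0.27, -0.14 and -0.52 on replicates 1, 2 and 3. CDC48 was at -0.18, -0.68 and -0.56, with a mean of -0.47 ± 0.26 (SD, n = 3 arrays; limma adjusted p = 0.399). Its cofactor gene SHP1 was at -1.32, 0.01 and -0.48, with replicate 2 at about 0, and had a mean of -0.60 ± 0.67 (SD, n = 3 arrays; limma adjusted p = 0.350). UFD2, NPL4, UFD1 and OTU1 had means of -0.40, -0.34, -0.24 and -0.16.

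UBA1, the gene of the ubiquitin-activating enzyme, was at -0.47, -0.45 and -0.68, close together, with a mean of -0.53 ± 0.13 (SD, n = 3 arrays; limma adjusted p = 0.315). Of the ubiquitin genes themselves, 3 of 4 were measured: the polyubiquitin gene UBI4 was at 0.13, -0.75 and -0.02, the fusion gene RPS31 at 0.54, -0.10 and 0.80, and RPL40B, whose copy RPL40A was not measured, had a mean of -0.05. Each of these 3 had arrays on both sides of 0. Over all lists of partner and regulator genes, 34 of 37 were measured and 23 had a mean below 0, where 50.8% of all features did. Many of these genes lacked a value in at least 1 scan, among them HSF1, UBR2, MUB1, PBA1, SEM1, FUB1, NPL4, UFD1 and RPS31. At an unadjusted p under 0.05, 4 were lower (SPG5, CDC48, SHP1 and UBA1) and 0 higher, beside 5.29% and 5.48% of all features, and by the limma adjusted p 0 passed.

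**Figure D4:**
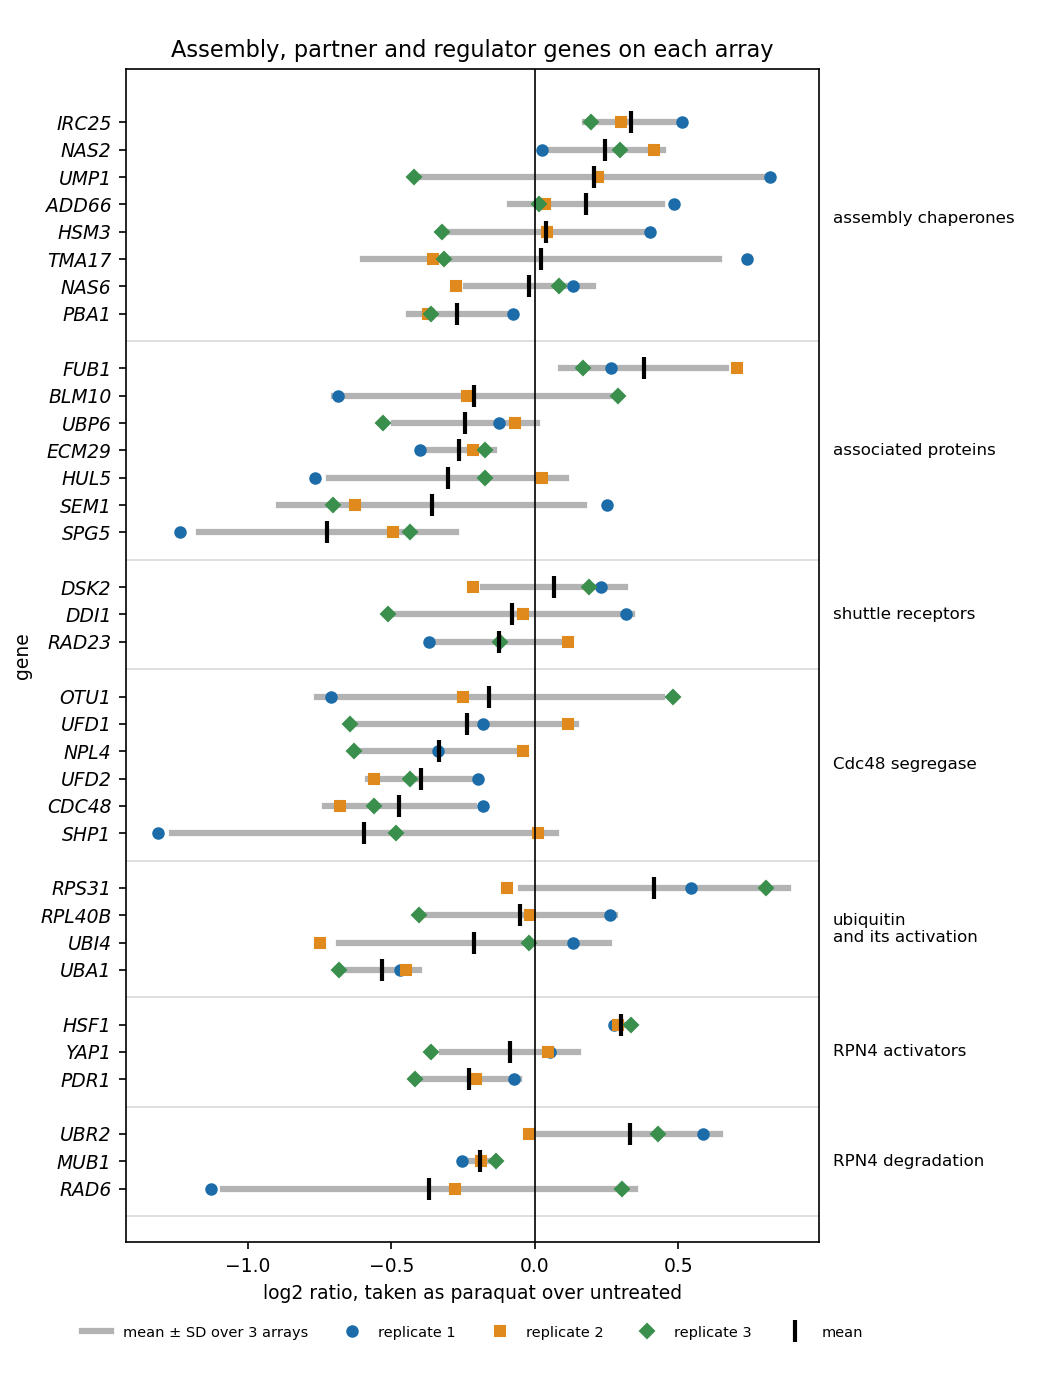
Log2 ratio (horizontal axis) on replicates 1, 2 and 3 for 34 assembly, partner and regulator genes (vertical axis, by list), with the mean as a black tick and the grey bar as mean ± SD over 3 arrays. All 6 means of the Cdc48 list lie left of 0, 6 of 8 assembly chaperone means lie right of 0, and the HSF1 points nearly coincide.

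The number of arrays limits these statements. The median standard error of a single gene's mean, 0.20, was close in size to the group median of -0.25. That error belongs to single genes and not to the group median, whose values on the 3 arrays had an SD of 0.03 as reported. Under some settings the array medians lay farther apart. They were -0.17, -0.24 and -0.31 on high power scans alone, and -0.30, -0.18 and -0.29 with the trend over the probe number removed. Repeated scans of the same spots add no biological replicate. The median of the gene means kept its size over the settings tried, between -0.27 and -0.25 for the 29 to 33 genes measured in each. The order of the 3 lists did not stay the same.

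**Figure D5:**
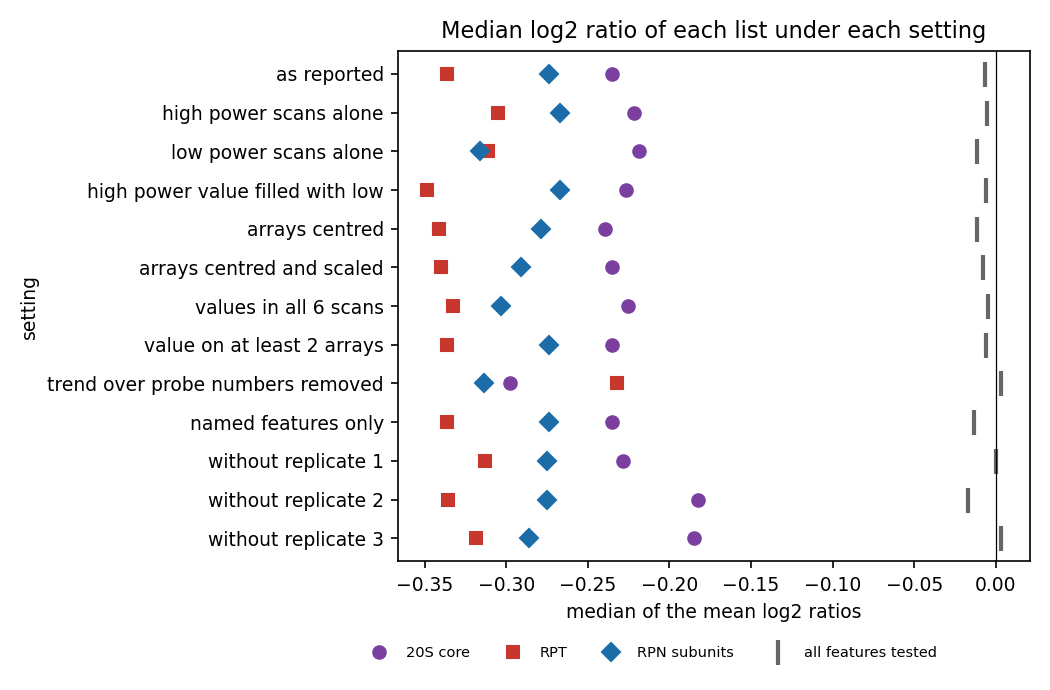
Median of the mean log2 ratios (horizontal axis) of the core, RPT and RPN subunit genes and of all features tested, under each processing setting (vertical axis). The 3 lists stay between -0.35 and -0.18 in every setting shown, the medians of all features lie near 0, and the RPT and core medians change places with the trend over probe numbers removed.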

How the data were processed

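Spots with flag 0 were normalized by LOWESS by the authors, per the labels, and their deposited values, for 6 scans of 3 arrays (high and low laser power), were taken as log2 ratios; no source used here states base or direction. Of 6912 probes, 5513 had 1 gene symbol, 0 several and 1399 none. For 5508 the gene identifier was found in a RefSeq table of assembly R64, used for current names and gene order. Probes with identical values (to 9 decimals) were joined, 761 probes without any value left out, and the scans of an array averaged. The 5693 features measured on all 3 arrays were fitted in R 4.3.3 with limma 3.58.1 (mean against 0, lmFit and eBayes, two-sided, Benjamini-Hochberg over all features, threshold 0.05). The fit was tested on simulated data. High power scans held values for 5730 to 6006 probes and low power scans for 2496 to 4076. The trend over probe numbers was an additive fit of the digit fields, whose share of the variance was 14.4% on replicate 1, 18.8% on replicate 2 and 10.0% on replicate 3.

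The 33 genes, the partner lists and the tests were chosen with earlier results of these data known. Described in full were RPN4, the catalytic beta genes, members with an unadjusted p under 0.05, and the 2 lowest and 2 highest means of each list; other members and partner genes are given by value. A promoter comparison was planned and not run here. Alternatives were each scan alone, filling, centring, scaling, filters on missing values, the trend, named features, leaving out each array, variance settings and testing against 1.2-fold.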

Additional observations from a re-analysis of the deposited data

How the results depend on the processing

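The median of the group lay below 0 under each alternative that changes the means. With all 33 genes measured, 25 to 30 means were below 0; it was 27 of 31 on high power scans, 28 of 31 on low power scans and 26 of 29 with values in all 6 scans. Of the 33 genes 24 kept their sign in every alternative that gave them a value. Variance settings, testing against 1.2-fold, named features and filters on missing values leave the mean of a gene as it is. Signs could therefore turn only under the others. The median of the measured members moved by less than the SD between arrays under each alternative that changes the means. The count of called features was not stable, from 2 as reported to 0 on high power scans alone, with low power values filling gaps, with centred arrays, with scaling added to centring, against 1.2-fold and without variance moderation. It was 18 on low power scans, 19 among features with values in all 6 scans, 6 with a value on at least 2 arrays, 1 with the trend over probe numbers removed, 14 among named features, 6 with robust variance, and 0 to 69 leaving out an array. Of proteasome genes, RPN8 alone was called, 1 gene, among features with values in all 6 scans, and 0 members under the other alternatives. The partner gene SPG5 was called on low power scans alone.

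The RPN subunit median, whose arrays differed little, moved to -0.27 on high power scans and with low power values filling gaps, -0.32 on low power scans, -0.28 centred, -0.29 centred and scaled, -0.30 with values in all 6 scans and -0.31 with the trend removed, and lay between -0.29 and -0.28 leaving out an array. With the trend removed the core median was -0.30 and the RPT median -0.23. Without an array the core median lay between -0.23 and -0.18. Signs turned, with no value called on either side, for genes near 0 or with 1 array apart. With the trend removed the means were 0.00705 for PRE8, -0.0192 for RPN10, -0.0320 for PRE7 and -0.0473 for DSK2. On high power scans, with gaps filled or not, they were -0.00571 for DSK2 and 0.00190 for YAP1. Leaving out 1 array in turn gave ranges of -0.628 to 0.0711 for PRE9, -0.526 to 0.0101 for SCL1, -0.237 to 0.00859 for RPN1, -0.194 to 0.0146 for RPT4, -0.123 to 0.00352 for PRE8, -0.268 to 0.0640 for RPN13, -0.0256 to 0.243 for RPN4 and -0.0217 to 0.223 for RPN10. For partner genes the ranges were -0.480 to 0.116 for OTU1, -0.101 to 0.520 for UMP1, -0.384 to 0.0573 for UBI4, -0.0140 to 0.209 for DSK2, -0.158 to 0.0492 for YAP1 and -0.704 to 0.0112 for RAD6. The causes were not tested. Each array pairs treated with untreated RNA, and the test of the mean log ratio against 0 uses that pairing. The samples form 1 group, so no further pairing was available.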
